A study of Homo sapiens with 9 samples.

Results

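The genes described here are the kinase Braf and its relative Araf, the AKT kinases Akt1 and Akt2, and the class IA PI3K catalytic subunits Pik3ca, Pik3cb and Pik3cd, taken by symbol from the expression table of 9 mouse tumors. Of the 7 genes listed, 6 had a row among the 17369 genes of the table, and all 6 were tested. Araf was not analysed here. Their RNA levels were compared between tumors of original and adapted TBP3743 cells and between both host strains.

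TBP3743 is a murine anaplastic thyroid cancer line, made in the B6129SF1 strain by expressing Braf V600E and deleting Trp53 in the thyroid, so the cancer cells of every group descend from the same engineered cells. The groups carry the names of the sample labels. SFOG tumors grew from original TBP3743 cells in B6129SF1 hosts, SFSC tumors from adapted cells in B6129SF1 hosts, and B6SC tumors from adapted cells in C57BL/6 hosts. The adapted cells had been recovered from tumors passaged under the skin of C57BL/6 mice, after round 3 of passaging, and are a single passaged line. All hosts were 6-week-old female mice, each given 100000 cells into the thyroid, and tumors were collected after 14 days. Each group held 3 tumors, labelled as biological replicates. RNA came from whole tumors, so host leukocytes, vessels, fibroblasts and muscle contributed to every value. The comparison of B6SC with SFOG changes both the cells and the host strain, which cannot be told apart in it. The same holds in part for the comparison with both hosts together, which sets the average of SFSC and B6SC against SFOG.

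RAF kinases receive the signal of active Ras at the membrane and pass it to the kinases MEK and ERK, which drive proliferation. The V600E form of BRAF signals without Ras, and it is a frequent driver of thyroid cancer. PI3K catalytic subunits make the membrane lipid PIP3, lipid phosphatases remove it, and PIP3 recruits and activates the AKT kinases, which act on growth, survival and metabolism. The alpha and beta subunits, encoded by Pik3ca and Pik3cb, are found in most tissues, whereas the delta subunit encoded by Pik3cd is best known from leukocytes.

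Levels are given as FPKM, fragment numbers corrected for the length of the transcript and for each library's size, which allow genes of different length to be set side by side. Differences between groups are on the scale of log2(FPKM + 1), so fold changes of genes near 0 are understated. They come from limma with Benjamini-Hochberg adjustment over the 10263 genes that reached 1 FPKM in 3 or more tumors. A gene is called changed at an adjusted p under 0.05 and is a DEG if its absolute log2 fold change is also above 1. The absolute depth of the tumors is unknown, and their approximate relative depth ranged from 0.961 to 1.35.

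The tissue label, a cancer epithelial cell, was checked against marker genes first. The simple keratins Krt8 and Krt18 had means of 510 ± 131 and 315 ± 95.8 FPKM in the SFOG tumors (SD, n = 3). In SFSC the means were 205 ± 68.8 and 169 ± 77.3 FPKM, and in B6SC 228 ± 11.1 and 161 ± 30.1 FPKM. With both hosts together Krt8 was called lower (-1.22, limma adjusted p = 0.0104) and Krt18 was not (-0.94, adjusted p = 0.0685). The 13 thyroid and epithelial markers summed to 880 ± 199, 414 ± 152 and 447 ± 27.9 FPKM in SFOG, SFSC and B6SC. Krt8 and Krt18 made up most of each sum, so it mainly repeats these genes. Over the tested markers of this list, the median log2 fold change was -0.39 in SFSC, 0.007 in B6SC and -0.15 with both hosts together. The adhesion gene Cdh1 had means of 2.69, 1.54 and 3.62 FPKM in SFOG, SFSC and B6SC. The thyroid transcription factor Nkx2-1 stood at 33.1 FPKM in SFOG, 34.7 FPKM in SFSC and 35.2 FPKM in B6SC. The epithelial adhesion gene Epcam was near 1 FPKM, with means from 0.945 to 1.32 FPKM. Among the 13 thyroid and epithelial markers, Tshr, Slc5a5, Pax8 and Foxe1 did not pass the filter on low values, and Foxe1 was listed at 0 in every SFSC tumor. Tg, which encodes thyroglobulin, passed the filter and was scattered within groups, at 0.0153, 30.2 and 12.2 FPKM in SFOG, 0.0431, 0.0382 and 1.203 FPKM in SFSC and 31.0, 11.3 and 0.358 FPKM in B6SC. Trp53 was measured at 8.87 FPKM in SFOG, 13.8 FPKM in SFSC and 10.5 FPKM in B6SC, although the cancer cells were made with a Trp53 deletion. These values come from whole tumors and from all exons of the gene, so they do not check the deletion.

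Skeletal muscle markers set 2 tumors apart. SFSC replicate 3 had 6.33% of its FPKM total in the 12 muscle markers, B6SC replicate 1 had 1.19%, and no other tumor had more than 0.142%. The first 2 are called the muscle-rich tumors, and calls that were lost without both of them are named as such.

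Across the 6 genes, Akt1 was by far the most abundant transcript in every group, with 154 ± 9.28 FPKM in SFOG, 126 ± 10.6 FPKM in SFSC and 135 ± 10.5 FPKM in B6SC (SD, n = 3 each). In the SFOG tumors, Akt2 (40.1 ± 1.70 FPKM) and Pik3ca (39.1 ± 3.89 FPKM) followed, with overlapping ranges. Pik3cb (11.5 ± 3.93 FPKM) and Braf (9.16 ± 0.655 FPKM) came next, also with overlapping ranges. Pik3cd was lowest at 5.11 ± 0.442 FPKM, below every value of the other genes. In SFSC Akt2 and Pik3ca kept their places but no longer overlapped, and Pik3cd, at 9.89 ± 0.713 FPKM, stood above Pik3cb and Braf, whose ranges overlapped. In B6SC the ranges of Pik3cd and Pik3cb overlapped, as did those of Pik3cb and Braf, and Akt2 again stood above Pik3ca.

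**Figure D1:**
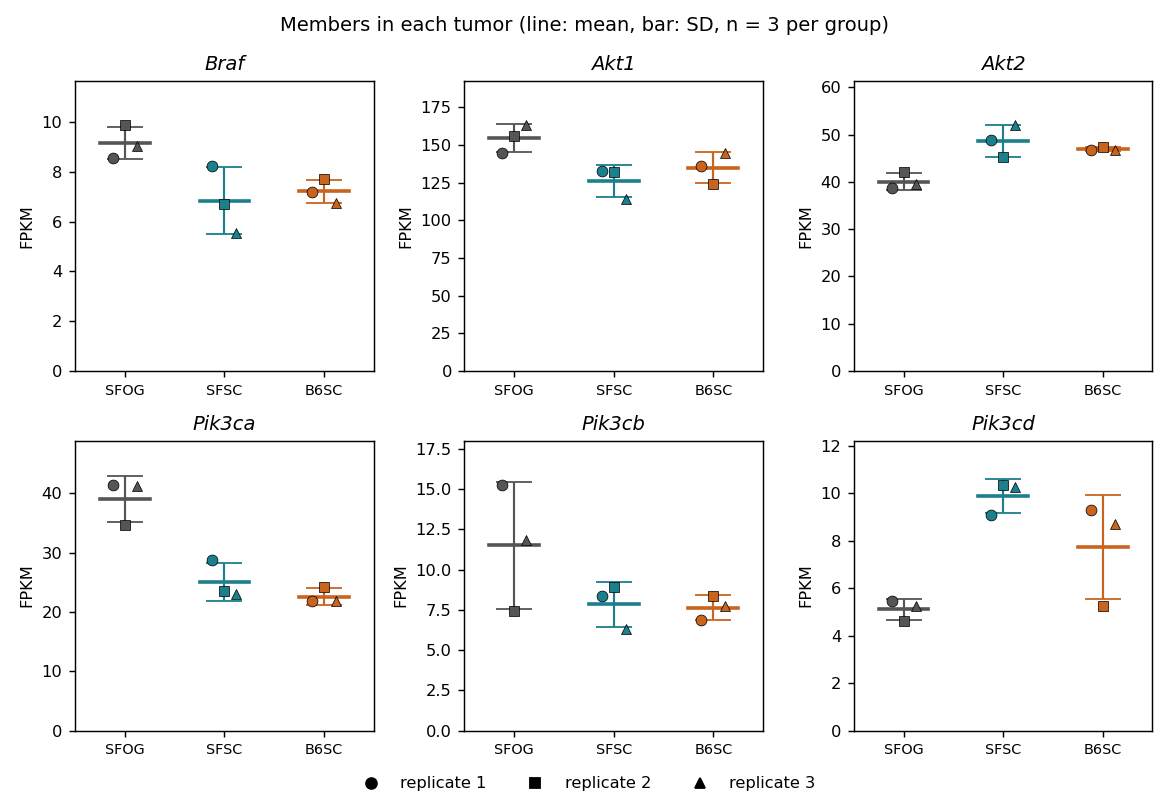
FPKM of the 6 genes in each of the 9 tumors, by group, with each panel on its own axis from 0. Points are tumors with the replicate number as marker shape, lines are means and bars SD (n = 3). All 6 adapted tumors lie below the SFOG tumors for Pik3ca and Braf and above them for Akt2.

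Against SFOG, Pik3ca was called lower in the adapted tumors of both hosts and Pik3cd was called higher in SFSC. Of the 6 genes, 2 were called in SFSC, 1 higher and 1 lower, where 8.28% of all genes tested were called. In B6SC, 1 of 6 was called, against 6.75% of all genes, and with both hosts together 2 of 6 were called, against 11.9%. None of the 6 was a DEG in any comparison, while 3.22% of all genes were DEGs in SFSC, 3.09% in B6SC and 3.39% with both hosts together. The 3 comparisons share the SFOG tumors. Between B6SC and SFSC, limma called 0 of the 6 genes at an adjusted p under 0.05 and 0 at an unadjusted p under 0.05, where 0.0292% and 6.27% of all genes passed.

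The groups separated more often than the test called. In SFSC, 5 of the 6 genes had no overlap with SFOG, 2 above it and 3 below, while 29.6% of all genes tested separated in either direction. In B6SC it was 3 of 6, against 32.8%, and with both hosts together 3 of 6, against 19.2%. Between both adapted groups, 0 of 6 separated, against 11.7%. The median log2 fold change of the 6 genes was -0.34 in SFSC and -0.25 in B6SC, where the medians of all genes tested were -0.03 and -0.03.

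**Figure D2:**
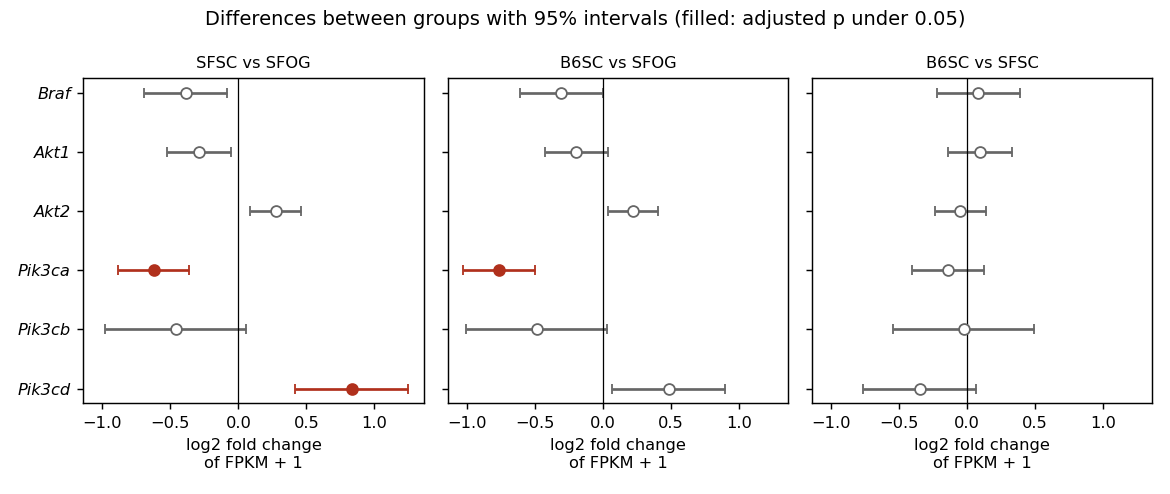
Log2 fold change of FPKM + 1 for Braf, both AKT genes and the 3 PI3K catalytic genes, in 3 panels for the 3 pairs of groups. Bars are 95% intervals from limma, not adjusted for the number of genes, and filled points passed an adjusted p of 0.05. Pik3ca is filled in both comparisons with SFOG and Pik3cd in SFSC, and no point is filled between the adapted groups.

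Braf, the driver gene of the line, was measured at 8.57, 9.86 and 9.04 FPKM in the SFOG tumors. The SFSC tumors had 8.23, 6.72 and 5.55 FPKM, and the B6SC tumors 7.20, 7.69 and 6.76 FPKM. Every adapted tumor was below every SFOG tumor, with a narrow gap to SFSC replicate 1. In limma, Braf differed by -0.39 on the log2 scale in SFSC (SE 0.13, limma adjusted p = 0.111) and -0.31 in B6SC (adjusted p = 0.206), neither called. Without SFSC replicate 1, Braf was called lower in SFSC, at -0.51 (adjusted p = 0.0492), and with both hosts together, at -0.41 (adjusted p = 0.036). Without SFSC replicate 3 the fold change in SFSC was -0.27 (adjusted p = 0.237), and without both muscle-rich tumors it was -0.27 in SFSC (adjusted p = 0.295) and -0.29 with both hosts together (adjusted p = 0.163). The difference between the adapted groups was 0.08, with a 95% interval from -0.22 to 0.39. The FPKM of Braf sums the mutant and the wild-type allele and the tumor and host cells, and the parts of these were not tested.

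Pik3ca encodes the p110 alpha subunit, the PI3K catalytic subunit most often mutated in cancers. It was measured at 41.4, 34.6 and 41.2 FPKM in SFOG. The SFSC tumors had 28.7, 23.5 and 23.0 FPKM, and the B6SC tumors 21.8, 24.2 and 21.8 FPKM. The groups were far apart, since the highest adapted tumor was below the lowest SFOG tumor by more than the SD of any group. Pik3ca had a log2 fold change of -0.62 in SFSC (SE 0.12, limma adjusted p = 0.0172) and -0.76 in B6SC (SE 0.12, adjusted p = 0.00743). It was -0.69 with both hosts together (SE 0.10, adjusted p = 0.00455). Between B6SC and SFSC the difference was -0.14, with a 95% interval from -0.40 to 0.12. The call in B6SC and the call with both hosts held under each alternative run and with each tumor left out. The call in SFSC was lost without both muscle-rich tumors (adjusted p = 0.0655), without SFOG replicate 1 or 3 (0.0625 and 0.0726), without SFSC replicate 2 (0.0556) and after removing the muscle markers and rescaling (0.0527), while the fold change stayed between -0.72 and -0.57 throughout.

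Pik3cb encodes the p110 beta subunit, which can also be activated through G protein-coupled receptors. The SFOG tumors were scattered, at 15.3, 7.43 and 11.8 FPKM. The SFSC tumors had 8.33, 8.91 and 6.29 FPKM and the B6SC tumors 6.87, 8.36 and 7.73 FPKM. SFOG replicate 2 lay among the adapted tumors, and the other SFOG tumors lay above all of them. The log2 fold change was -0.46 in SFSC (SE 0.23, limma adjusted p = 0.237) and -0.49 in B6SC (adjusted p = 0.233), not called. Without SFOG replicate 2, the fold change with both hosts together went from -0.47 to -0.73 and was called (adjusted p = 0.0329), and without SFOG replicate 1 it went to -0.26 (adjusted p = 0.459). In SFSC it was -0.72 and -0.25 without these tumors, and in B6SC -0.74 and -0.27, not called.

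Pik3cd, which encodes the delta subunit best known from leukocytes, moved the other way. It was measured at 5.47, 4.62 and 5.26 FPKM in SFOG. The SFSC tumors had 9.07, 10.3 and 10.3 FPKM, and the B6SC tumors 9.30, 5.24 and 8.71 FPKM. All SFSC tumors were above SFOG, whereas B6SC replicate 2 stood within the SFOG range. For Pik3cd the log2 fold change was 0.83 in SFSC (SE 0.18, limma adjusted p = 0.0293) and 0.49 in B6SC (SE 0.18, adjusted p = 0.148), and with both hosts together 0.66 (SE 0.16, adjusted p = 0.0315). The difference between the adapted groups was -0.35, with a 95% interval from -0.76 to 0.07. Without B6SC replicate 2, Pik3cd was called higher in B6SC as well, at 0.71 (adjusted p = 0.0214). The SFSC call was lost without both muscle-rich tumors (adjusted p = 0.0662), without SFSC replicate 2 or 3 (0.0793 and 0.0695), without any one SFOG tumor (0.0715 to 0.0854), and narrowly without a filter on low values, after removing the muscle markers and rescaling, and with the replicate block (0.0518 to 0.0520). The call with both hosts together was lost without both muscle-rich tumors (0.0747), without a filter (0.0544), after removing the muscle markers and rescaling (0.0561) and in 6 of 9 fits with a tumor left out.

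The 3 catalytic subunit transcripts summed to 55.7 ± 8.08 FPKM in SFOG, 42.8 ± 3.30 FPKM in SFSC and 38.0 ± 0.228 FPKM in B6SC. The Pik3cd share of this sum was 8.80%, 9.90% and 9.01% in the SFOG tumors. It was 19.7%, 24.2% and 26.0% in SFSC and 24.5%, 13.9% and 22.8% in B6SC. Every adapted tumor was above every SFOG tumor, and B6SC replicate 2 was the nearest to them. The mean share was higher by 14.04 percentage points in SFSC and 11.2 in B6SC, each at p = 0.1 in an exact two-sided permutation test, which is the smallest p that 3 tumors against 3 can give. With both hosts together the difference was 12.6 percentage points (exact two-sided permutation p = 0.0238, the smallest that 6 against 3 can give, adjusted p = 0.143 over 12 such tests). Pik3ca held 70.5% of the sum in SFOG, 58.4% in SFSC and 59.5% in B6SC, given as values with no test.

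**Figure D3:**
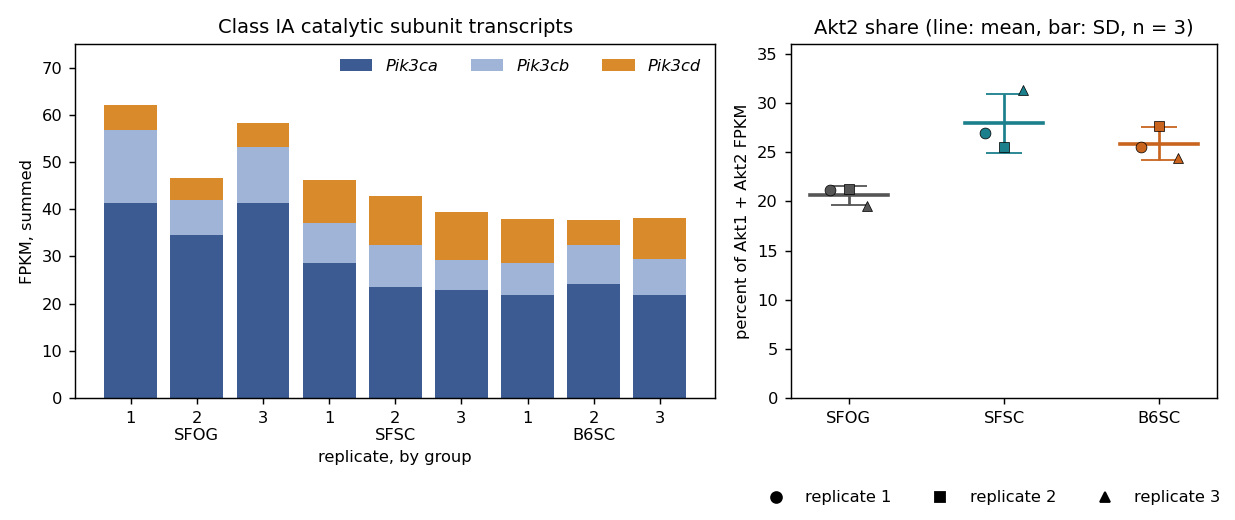
Left, FPKM of Pik3ca, Pik3cb and Pik3cd stacked for each tumor, with the replicate number and group below each bar. Right, the Akt2 share of the summed Akt1 and Akt2 FPKM in percent, with points for tumors, lines for means and bars for SD (n = 3). The Pik3cd segment is widest in the adapted tumors other than B6SC replicate 2, and all adapted tumors have an Akt2 share above 24%.

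Because Pik3cd is best known from leukocytes, leukocyte markers were read beside it. Which cells carried its RNA in these tumors was not tested. Of the 17 markers listed, 14 were tested, and all 14 had a higher mean log2 level in SFSC than in SFOG. In B6SC the mean log2 level of Lyz2 differed from SFOG by -0.015, and the other markers were higher in the mean. The markers called were 2 of 14 in SFSC, 2 of 14 in B6SC and 4 of 14 with both hosts together, where 8.28%, 6.75% and 11.9% of all genes were called. All of these markers were higher, and the 4 were Cd2 and Cd3g of T cells, Cd52 and the integrin Itgb2. The FPKM of the 16 markers with a row in the table summed to 1652, 1904 and 1814 in the SFOG tumors, 2632, 2278 and 3278 in SFSC and 2355, 1474 and 2669 in B6SC. B6SC replicate 2, the adapted tumor lowest in Pik3cd, had the lowest marker sum of all tumors, of which Lyz2 alone made up 913 FPKM. Its mean log2 level of the 14 markers, 4.75, was the lowest of the adapted tumors but above the SFOG tumors (4.23 to 4.48), and its Cd3g level was 5.53 FPKM, where the SFOG tumors had 0.967 to 1.17 FPKM. The myeloid lysozyme gene Lyz2 was the most abundant marker, at 1265 FPKM in SFOG, 1824 FPKM in SFSC and 1281 FPKM in B6SC. The B cell marker Ms4a1 did not pass the filter, with at most 0.133 FPKM in any tumor.

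On the log2 scale, Pik3cd minus the mean of the 14 markers was -1.74 ± 0.0939 in SFOG, -1.73 ± 0.251 in SFSC and -2.10 ± 0.0115 in B6SC. The difference between SFSC and SFOG was 0.01 (exact two-sided permutation p = 1.0), where Pik3cd alone differed by 0.83. Its sign turned with Ptprc alone as the reference, at -0.037, and with a pseudocount of 0.1, at -0.10. In B6SC the relative level was lower than in SFOG by 0.36 in the mean, with all 3 tumors below (exact permutation p = 0.1, adjusted p = 0.15). It was lower by 0.56 with a pseudocount of 0.1, and with Ptprc alone by 0.30, where the groups overlapped (exact permutation p = 0.2). The FPKM ratio of Pik3cd to the pan-leukocyte gene Ptprc was 0.337 in SFOG, 0.346 in SFSC and 0.278 in B6SC. The mean of the 14 markers was 4.35 in SFOG, 5.17 in SFSC and 5.19 in B6SC on the log2(FPKM + 1) scale. In whole tumors, more leukocytes and more Pik3cd RNA per cell cannot be told apart.

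**Figure D4:**
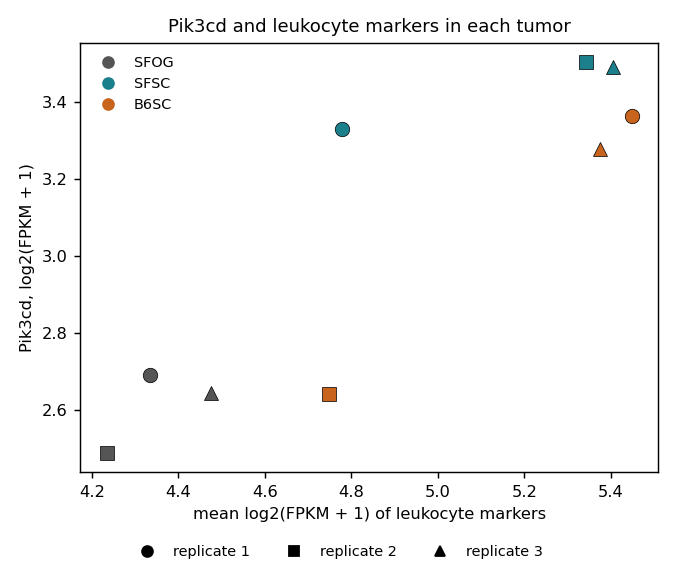
Pik3cd against the mean of 14 leukocyte markers, both as log2(FPKM + 1), in each of the 9 tumors, with color for the group and marker shape for the replicate number. The SFOG tumors sit at the lower left, B6SC replicate 2 lies lowest of the adapted tumors, and the other adapted tumors sit at higher Pik3cd levels.

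Akt1, the AKT kinase best known for growth and survival signaling, was measured at 145, 156 and 163 FPKM in SFOG. The SFSC tumors had 133, 132 and 114 FPKM and the B6SC tumors 136, 124 and 145 FPKM. All SFSC tumors were below SFOG, while B6SC replicate 3 just overlapped it. The log2 fold change was -0.29 in SFSC (SE 0.10, limma adjusted p = 0.115) and -0.19 in B6SC (adjusted p = 0.284), not called under any alternative or with any tumor left out.

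Akt2, the AKT kinase best known from insulin signaling, was measured at 38.8, 42.0 and 39.5 FPKM in SFOG. The SFSC tumors had 48.9, 45.3 and 52.0 FPKM and the B6SC tumors 46.7, 47.4 and 46.8 FPKM. Every adapted tumor was above every SFOG tumor. The log2 fold change was 0.27 in SFSC (SE 0.08, limma adjusted p = 0.0762), 0.22 in B6SC (adjusted p = 0.136) and 0.25 with both hosts together (SE 0.07, adjusted p = 0.0543), just short of a call. It passed with both hosts together only when no filter on low values was set (adjusted p = 0.0369).

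The balance of both AKT genes was compared as a share. It is made of the same values as their fold changes, which had opposite signs, and adds no independent evidence. Akt2 made up 21.1%, 21.2% and 19.5% of the summed Akt1 and Akt2 FPKM in SFOG, 26.9%, 25.5% and 31.3% in SFSC and 25.5%, 27.7% and 24.4% in B6SC. The mean share was 20.6 ± 0.981%, 27.9 ± 3.02% and 25.9 ± 1.65%, and no adapted tumor overlapped SFOG. The difference was 7.29 percentage points in SFSC and 5.25 in B6SC (exact two-sided permutation p = 0.1 each), and 6.27 with both hosts together (exact permutation p = 0.0238, adjusted p = 0.143 over 12 tests). Between the adapted groups it was -2.04 (exact permutation p = 0.5). SFSC replicate 3, the tumor richest in muscle transcripts, had the highest share. Without both muscle-rich tumors the difference with both hosts together was 5.51 percentage points (exact permutation p = 0.0571). That p is the smallest that the remaining tumors can give, so its rise does not show a weaker difference.

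The other genes of both pathways were read from 7 lists of 77 genes, of which 71 were tested. In SFSC, limma called 2 of the 71, Ksr1 higher and Sos1 lower, where 8.28% of all genes were called. In B6SC it called 0 of 71, against 6.75% of all genes, with 15 at an unadjusted p under 0.05, or 21.1% of the list, where 24.4% of all genes passed that threshold. Between the adapted groups it called 0 of 71, against 0.0292% of all genes, with 1 at an unadjusted p under 0.05, which is 1.41% of the list, where 6.27% of all genes passed. With both hosts together it called 7 of 71, which is 9.86%, where 11.9% of all genes were called. At an unadjusted p under 0.05 it was 26.8% of the list and 26.5% of all genes in SFSC, and 28.2% and 29.4% with both hosts together, near the background. None of the 71 was a DEG. The median log2 fold change of the 71 genes with both hosts together was 0.03, and that of all genes was -0.03.

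**Figure D5:**
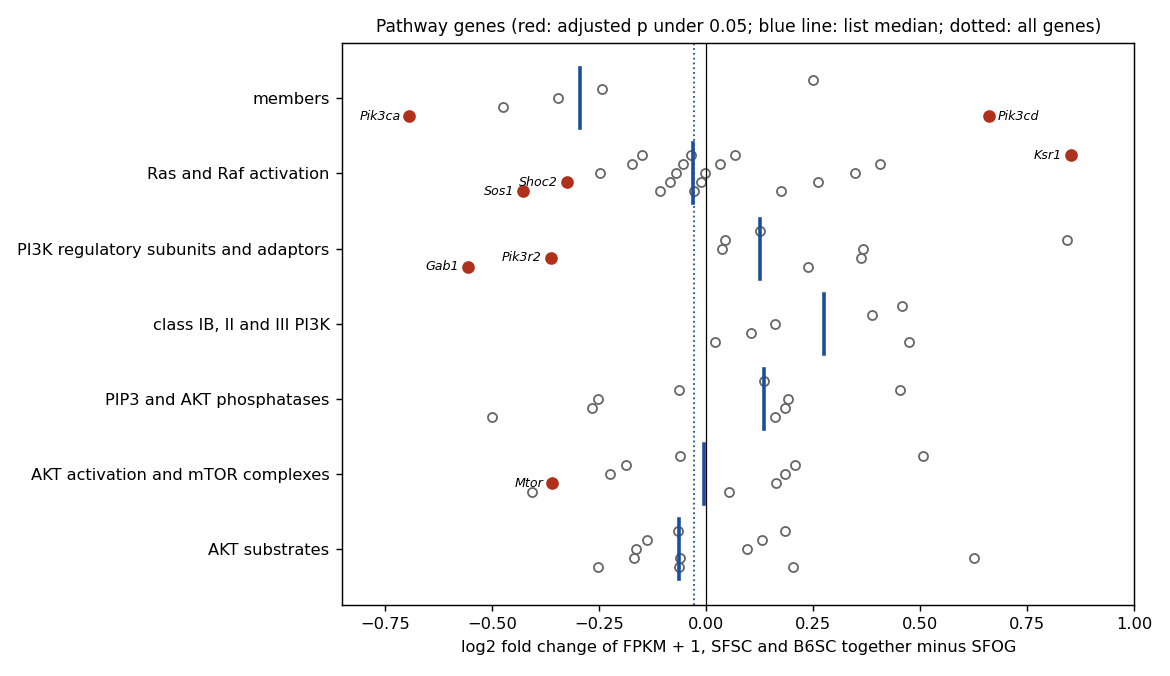
Log2 fold change of FPKM + 1 with SFSC and B6SC together against SFOG, for the 6 genes (members) and the genes of 6 of the 7 pathway lists. Each point is a gene, filled red at a limma adjusted p under 0.05 and named, blue lines are list medians, and the dotted line is the median of all genes tested. Of the pathway genes shown 6 are red, 5 of them lower.

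Upstream of the RAF kinases, the list of Ras and Raf activation held 20 tested genes, of which 1 rose and 2 fell with both hosts together, or 3 of 20, where 11.9% of all genes were called. Ksr1, a scaffold that brings RAF, MEK and ERK together, was measured at 2.23, 1.27 and 1.28 FPKM in SFOG, 3.39, 3.29 and 6.06 FPKM in SFSC and 3.43, 3.37 and 2.76 FPKM in B6SC. No adapted tumor overlapped SFOG, and the level was low in every group. Its log2 fold change was 1.00 in SFSC (limma adjusted p = 0.0321) and 0.85 with both hosts together (SE 0.20, adjusted p = 0.0263). Ksr1 fell just short of a DEG in SFSC and passed that threshold with a pseudocount of 0.1, at a log2 fold change of 1.35, and under both other scalings. Its SFSC call was lost in 4 of 9 fits with a tumor left out (adjusted p up to 0.1104) and under 4 of 8 alternatives (up to 0.0769). Without both muscle-rich tumors the fold change in SFSC was 0.76 (adjusted p = 0.0769), as it was without SFSC replicate 3 alone (adjusted p = 0.0585). The call with both hosts together was lost in 3 of 9 such fits (up to 0.106) and under 1 of 7 alternatives.

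Sos1, an exchange factor that loads Ras with GTP, fell from 7.69 ± 0.297 FPKM in SFOG to 5.32 ± 0.695 FPKM in SFSC, a log2 fold change of -0.46 (limma adjusted p = 0.0394), and with both hosts together by -0.43 (adjusted p = 0.0253). Its SFSC call was lost without both muscle-rich tumors, at -0.37 (adjusted p = 0.117), and with each of the 9 tumors left out in turn, and the call with both hosts together in 3 of 9 such fits (adjusted p up to 0.0975) and under 2 of 8 alternatives. Shoc2, part of the phosphatase complex that activates RAF, went from 24.0 FPKM to 18.9 FPKM in both adapted groups, a log2 fold change of -0.33 with both hosts together (adjusted p = 0.0405). That call was lost with each of the 9 tumors left out (0.0507 to 0.115) and under 3 of 8 alternatives. The Ras gene Nras had 57.1 FPKM in SFOG, 51.5 FPKM in SFSC and 56.2 FPKM in B6SC and was not called.

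Among the 9 PI3K regulatory subunits and adaptors, 2 fell with both hosts together, where 11.9% of all genes were called. Gab1, a docking protein that carries PI3K to growth factor receptors, had 7.17 ± 0.376 FPKM in SFOG, 4.60 ± 1.23 FPKM in SFSC and 4.63 ± 0.562 FPKM in B6SC, a log2 fold change of -0.56 (SE 0.15, limma adjusted p = 0.0434). Pik3r2, which encodes the p85 beta subunit that binds the class IA catalytic subunits, had 43.0 ± 3.05, 35.1 ± 5.09 and 31.6 ± 1.01 FPKM, a log2 fold change of -0.36 (adjusted p = 0.0489). Both calls were lost in 7 of 9 fits with a tumor left out (adjusted p up to 0.142 for Gab1 and 0.134 for Pik3r2), and under 3 of 8 alternatives for Gab1 and 7 of 8 for Pik3r2. Pik3r1, which encodes p85 alpha, spread widely within groups, at 21.3 ± 9.69, 31.1 ± 5.98 and 22.5 ± 5.80 FPKM, and was not called. Pik3ap1, an adaptor best known from B cells and macrophages, had 6.18, 11.5 and 12.7 FPKM and was not called (0.84, adjusted p = 0.0857).

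None of the 6 tested class IB, II and III PI3K genes was called. Their median log2 fold change with both hosts together, 0.27, was the highest of the 7 lists. Pik3cg and Pik3r5, the catalytic and regulatory subunits of the class IB enzyme of leukocytes, had log2 fold changes of 0.46 and 0.47 (limma adjusted p = 0.179 and 0.194).

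Of the 9 phosphatases that act on PIP3 or on AKT, none was called. Inpp5d, which encodes the leukocyte phosphatase SHIP1, was at 14.3, 21.6 and 19.0 FPKM and Inpp4b at 3.17, 1.93 and 2.01 FPKM, neither called.

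Among the 10 tested genes on AKT activation and the mTOR complexes, Mtor, the kinase that links AKT to protein synthesis, fell from 16.2 ± 0.621 FPKM in SFOG to 12.5 ± 1.04 FPKM in SFSC and 12.2 ± 0.852 FPKM in B6SC, a log2 fold change of -0.36 with both hosts together (SE 0.08, limma adjusted p = 0.0262). The Mtor call was lost in 5 of 9 fits with a tumor left out (adjusted p up to 0.0895) and under 3 of 8 alternatives (up to 0.0974). Rptor, the mTORC1 subunit, had a log2 fold change of -0.41 (adjusted p = 0.0917), and Deptor, an inhibitor of mTOR, one of 0.51 (adjusted p = 0.0967). Of the 12 tested AKT substrates, none was called, and the farthest from 0 was Tbc1d4, a substrate that governs glucose transporter traffic, at 0.63 (adjusted p = 0.0609).

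The number of pathway genes called with both hosts together varied with the samples and the scaling. Without both muscle-rich tumors 3 pathway genes were called, namely Ksr1, Sos1 and Gab1, while the calls of Shoc2 (adjusted p = 0.0922), Pik3r2 (0.0894) and Mtor (0.0577) were lost. Only 1 was called after removing the muscle markers and rescaling every tumor to the same total, and without SFOG replicate 3 none was. With both hosts together the epithelial marker Krt8 was called lower, and 4 of the 14 tested leukocyte markers were called higher. The part of these cell type markers in the pathway values was not tested.

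For each of the 6 genes, the genes whose log2 levels followed it most closely over the 9 tumors were listed, as a description. All 9 tumors share the group structure, so these correlations hold both the group differences and the spread within groups. Braf was followed by Rab11fip2 (r = 0.98, rho = 0.98) and Cd109, and Pik3ca by Polk (r = 0.97, rho = 0.85) and Fbxo33. Akt1 was followed by Flot2 (r = 0.98, rho = 0.97) and Glis2, and Akt2 by Iffo1 (r = 0.97, rho = 0.98) and Wdr25. Pik3cb was followed by Sipa1l3 (r = 0.97, rho = 0.85) and Zmym1. Pik3cd was followed by Tnfrsf11a (r = 0.99, rho = 0.97), which encodes the receptor RANK, and by the myeloid kinase gene Fes and by Cyth4. Among the 6 genes themselves, Akt2 ran opposite to Pik3ca (r = -0.85), to Akt1 (r = -0.83) and to Pik3cb (r = -0.82), and Braf ran with Pik3ca (r = 0.79) and opposite to Pik3cd (r = -0.81).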

How the data were processed

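RNA from 9 whole tumors was measured, 3 per group, and tumors were grouped by their titles. The submitters' processing notes name FastQC, HISAT2, Cuffnorm, Cuffdiff and the mouse build mm10. The authors aligned paired-end reads with HISAT2, used Cuffnorm to obtain FPKM, and deposited FPKM values. The annotation and Cuffnorm's scaling were not given in the sources used here. The sample labels name human as the organism, although the build and the symbols are mouse. No column of the table was left unmapped, and counts were not used.

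From the deposited FPKM, log2(FPKM + 1) was taken. A gene entered the test if it reached 1 FPKM in 3 or more tumors (10263 genes). The test was limma 3.58.1, run under R 4.3.3 (one model of 9 tumors, mean-variance trend, Benjamini-Hochberg adjustment). Both hosts together means the average of the 2 adapted groups against SFOG, so this comparison also mixes the cells with the host strain. Shares and relative levels were compared with exact two-sided permutation tests in scipy 1.17.1, 12 in all. P-values measure the spread between these tumors, and their number limits the precision. Relative depth was read from the steps between low FPKM values. The procedure was tested on simulated data. The changes set there were larger than those of the listed genes and lay in genes above a low level, so the finding of smaller changes was not tested.

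Genes named are the listed genes, genes of the pathway and marker lists that were called or whose level is given, the genes most correlated with each listed gene, and Trp53. The genes and lists were chosen with earlier results of these data known. Alternatives covered the pseudocount, filters, scaling, samples in the fit, a replicate block, the variance prior, the muscle-rich tumors and each tumor left out. The Pik3ca share was added after the data were seen. Some genes of the lists are not reported here. Sequences and coordinates were not analysed here.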

Additional observations from a re-analysis of the deposited data

How the results depend on the processing

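The lower Pik3ca level in B6SC and with both hosts together stayed called under every alternative, with adjusted p from 0.00690 to 0.0284 and from 0.00422 to 0.0187. The count of the 6 genes called in SFSC, 2, went to 1 without a filter on low values and with the replicate block, and to 0 after rescaling every tumor to the same total after leaving out the muscle markers or without both muscle-rich tumors. With both hosts together it went from 2 to 1 under these last 2 alternatives. Leaving out each tumor gave 0 to 3 genes in SFSC, 1 to 2 in B6SC and 1 to 3 with both hosts together. Pathway genes called in SFSC, 2, went to 0 without a filter or without the muscle-rich tumors and to 1 with a filter of 5 FPKM, after the same removal and rescaling, with the block and with only the groups compared. In B6SC the count, 0, went to 1 without the muscle-rich tumors and 2 with only the groups compared. With both hosts together the count, 7, went to 1 after the same removal and rescaling, 0 with the block and 3 without the muscle-rich tumors. Leaving out each tumor gave 0 to 3, 0 to 4 and 0 to 7 pathway genes in these comparisons. DEGs numbered 330, 317 and 348 and ranged over left-out tumors from 141 to 358, 156 to 347 and 221 to 370. Between the adapted groups, 3 DEGs went to 1 without a filter, 0 with the block, 0 with only the groups compared and 0 to 6 with a tumor left out. Removing the muscle markers and rescaling also moved the split of all genes called with both hosts together from 622 higher and 599 lower to 589 and 327, in SFSC from 448 and 402 to 404 and 224, and in B6SC from 409 and 284 to 391 and 163. The causes were not tested.

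The Akt2 share with both hosts together differed by 5.51 percentage points without the muscle-rich tumors (exact permutation p = 0.0571), by 6.27 with the replicate block (exact p = 0.25, the smallest it allows) and by 5.39 to 6.77 with a tumor left out. The Pik3cd share differed by 10.9 (exact permutation p = 0.0571), 12.6 (exact p = 0.25) and 11.8 to 14.2. For both shares, 0.0571 is the smallest p that the permutation test can give without the muscle-rich tumors. Between the adapted groups, the Pik3cd share differed by -2.89 percentage points, and by -4.94 to 0.365 with a tumor left out, the last without B6SC replicate 2. Pik3cd relative to leukocyte markers in SFSC differed by 0.01, by -0.037 with Ptprc alone, by -0.10 with a pseudocount of 0.1 and by -0.14 to 0.10 with a tumor left out, below 0 without SFOG replicate 3 (-0.038) or SFSC replicate 1 (-0.14). With both hosts together it differed by -0.17, and by -0.27 to -0.13 with a tumor left out, the first without SFSC replicate 1 (exact permutation p = 0.0357). Between the adapted groups, single genes near 0 changed sign. Braf went to -0.039 without the muscle-rich tumors and ranged from -0.040 (without SFSC replicate 3) to 0.21 with a tumor left out. Akt2 went to 0.0021 without the muscle-rich tumors. Pik3cb ranged from -0.16 to 0.065, above 0 without SFSC replicate 1 (0.021), SFSC replicate 2 (0.065) and B6SC replicate 1 (0.043).

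Same-numbered tumors did not all deviate together, with correlations of their deviations from -0.39 to 0.61. Between the replicate 2 tumors the correlations were 0.026 (SFOG with SFSC), 0.30 (SFOG with B6SC) and 0.61 (SFSC with B6SC). The other same-numbered tumors had correlations of both signs. Such mixed values cannot decide whether the numbers pair the tumors, and a shared batch was not tested. With the replicate block, DEGs numbered 242, 245 and 309 in the comparisons with SFOG, and Pik3cd in SFSC had an adjusted p of 0.0518. The planned Braf share of Braf and Araf was not run, since Araf was not analysed here, and the fit of only the groups compared is the same fit as the reported one with both hosts together. The absolute depth is unknown, which limits statements on genes near 0 FPKM.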
